A study of Mus musculus with 40 samples.

Results

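Meg3, Rian and Mirg are 3 imprinted noncoding RNAs of a single chromosomal domain, and their levels were examined in mouse liver across genotype, sex and diet. The members are the rows of Meg3 (ENSMUSG00000021268), Rian (ENSMUSG00000097451) and Mirg (ENSMUSG00000097391), 3 of the 57186 Ensembl gene IDs counted in each library. They were selected on the Rian counts of 1 WT comparison, in which Rian was much lower on a high-fat diet (HFD). That is taken to be the WT male comparison, where the Rian difference was the larger, and every value of it is given below as a description without a test. Meg3 and Rian were read in all 40 libraries and passed the filter on low counts, whereas Mirg did not pass it.

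Liver poly(A) RNA was sequenced in 40 libraries in 8 groups of 5, named by the genotype (WT or KO), sex and diet (chow or HFD) in their titles. The study asked how the liver transcriptome differs with and without functional NNT, a mitochondrial enzyme that generates NADPH. All libraries, WT and KO alike, carry the strain label C57BL/6NCrl, and the allele of the KO is not given in the labels used here. Livers were taken 2 to 4.5 h into the light phase from mice aged 22 to 24 weeks, and the HFD groups had eaten a diet with 45 kcal% fat for 11 weeks, from an age of 11 to 13 weeks, while the chow groups stayed on chow.

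Library totals ran from 15973432 to 28159440 counts, with a median of 20427718. The treatment label disagreed with the title on diet in 20 of 40 libraries. The titles were used, so every diet comparison here rests on them. Nnt itself had 13 to 54 reads per library with overlapping ranges in WT and KO, so its reads could not check the genotype label. Replicates are numbered but not tied to named mice, so a p-value here reflects the spread among libraries, which may be technical. The 5 hepatocyte markers (Alb, Apoa1, Ttr, Serpina1c and Apob) summed to between 61400 and 129000 CPM (reads per 1000000 reads of the scaled library), and none was at 0 in every library of a group.

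The Dlk1-Dio3 domain lies on mouse chromosome 12 and is expressed according to the parent of origin. Its noncoding RNAs are transcribed from the maternal copy, whereas the protein-coding genes Dlk1, Rtl1 and Dio3 are expressed mainly from the paternal copy. Meg3 is a long nuclear RNA at the head of the maternal transcripts, Rian hosts C/D box small nucleolar RNAs (snoRNAs), and Mirg hosts a large cluster of microRNAs. The domain is active in the fetus and the placenta, and most of its genes are low in the adult liver.

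The small RNAs that the members host are shown here because these libraries measure the host transcripts and not the processed products. Only hairpins with a mature sequence matched to them in RefSeq (build GRCm38.p6) were counted. Of these, Meg3 held 1 hairpin with 2 mature microRNAs, Rian 3 hairpins with 6, and Mirg 14 hairpins with 26. Mir1906-1, which GENCODE M21 also places inside Meg3, is not among them. The 34 mature microRNAs carried 33 different seeds, the bases 2 to 8 that pair with a target, and the single seed in common belonged to miR-453 and miR-496a-5p of Mirg. Below, seeds are in capitals, and each host is represented by a well-studied product or by the pair with the common seed.
mmu-miR-770-5p (Meg3): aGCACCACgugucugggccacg
mmu-miR-370-3p (Rian): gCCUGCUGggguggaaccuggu
mmu-miR-134-5p (Mirg): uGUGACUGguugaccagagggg
mmu-miR-410-3p (Mirg): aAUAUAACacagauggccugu
mmu-miR-453 (Mirg): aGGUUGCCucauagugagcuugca
mmu-miR-496a-5p (Mirg): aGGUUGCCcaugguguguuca

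The start of Meg3 is shown because Meg3 and Rian moved together in the comparisons that follow and Meg3 lies first among the 3 members. RefSeq's table held 2 start windows for Meg3 and 1 each for Rian and Mirg, each from 250 bases before to 50 bases after the start. The first Meg3 window, chr12:109540746-109541045 on the plus strand of GRCm38.p6, an earlier build than the one the reads were counted on, holds 1 copy of the cAMP response element TGACGTCA, whose first base lies 57 bases before the start. It also holds the TATA box letters TATAAA on both strands, in 2 overlapping copies that begin 29 and 25 bases before the start. Capitals mark these matches.
Meg3 start window: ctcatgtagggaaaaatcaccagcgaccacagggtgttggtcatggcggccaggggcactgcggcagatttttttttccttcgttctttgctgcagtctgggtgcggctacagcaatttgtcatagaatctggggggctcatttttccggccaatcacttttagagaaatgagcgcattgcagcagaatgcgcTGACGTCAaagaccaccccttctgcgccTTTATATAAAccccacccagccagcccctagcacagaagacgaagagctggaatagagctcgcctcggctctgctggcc
Searched on both strands, TGACGTCA was present in 588 of 32851 windows of this length (1.79%) and TATAAA in 4473 (13.6%). Neither was found in the second Meg3 window or in the Rian and Mirg windows. The STAT site letters TTCNNNGAA, present in 2726 windows (8.3%), were found 1 time in the Rian window and in none of the others. These matches describe the letters and say nothing of a factor.

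Meg3 was lower on HFD than on chow in both sexes of the KO and in WT females. In KO females on chow, Meg3 stood at 1.56, 7.42, 3.30, 9.82 and 8.06 CPM in the 5 libraries, from 34, 151, 61, 216 and 223 reads. In KO females on HFD it stood at 1.28, 0.820, 0.982, 1.52 and 0.474 CPM, from 11 to 32 reads. The chow libraries were widely spread, yet the lowest of them, replicate 1, still lay just above the highest HFD library, so the groups did not overlap. For this and every later statement of overlap between diet groups, the share of all genes without overlap was not counted. Such statements describe the values only. The log2 difference from chow to HFD was -2.58 ± 0.39 (SE, n = 5 per group, 95% interval -3.36 to -1.80, adjusted p = 3.24e-05, edgeR's quasi-likelihood test with Benjamini-Hochberg adjustment over 15627 genes), which is a 5.96-fold lower level. In this comparison 772 of 15627 genes passed an adjusted p of 0.05 (4.94%), 2.54% as lower and 2.4% as higher. In bulk tissue, fewer cells of a type and less RNA per cell cannot be told apart.

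In KO males, Meg3 levels on chow were 5.76, 4.69, 4.15, 3.28 and 5.54 CPM. On HFD they were 1.56, 2.11, 1.51, 0.986 and 1.35 CPM. All 5 HFD libraries lay below all 5 chow libraries. The SD of the chow group was 1.02 CPM against 3.46 CPM in KO females, and that of the HFD group was 0.406 CPM in both sexes. The log2 difference was -1.63 ± 0.38 (95% interval -2.39 to -0.87, edgeR adjusted p = 0.00643), a 3.09-fold lower level, where 695 genes (4.45%) passed the test, 2.12% as lower and 2.32% as higher.

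In WT females, Meg3 levels on chow were 2.04, 2.48, 4.66, 3.65 and 5.81 CPM. On HFD they were 1.15, 0.926, 1.54, 1.55 and 0.576 CPM. The groups did not overlap, with replicate 1 the lowest on chow and replicate 4 the highest on HFD. The log2 difference was -1.69 ± 0.39 (95% interval -2.47 to -0.90, edgeR adjusted p = 0.00978), a 3.22-fold lower level, where 438 genes (2.8%) passed, 1.84% as lower and 0.96% as higher.

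Rian, the snoRNA host that lies downstream of Meg3, was lower on HFD in the same 3 comparisons. In KO females on chow it stood at 0.961, 3.98, 1.84, 7.28 and 5.02 CPM. In KO females on HFD it stood at 1.01, 0.455, 0.409, 0.903 and 0.258 CPM. HFD replicate 1 was above chow replicate 1, so the groups overlapped there, and the other 4 HFD libraries lay below every chow library. The log2 difference was -2.66 ± 0.45 (95% interval -3.57 to -1.74, edgeR adjusted p = 2.00e-04), a 6.30-fold lower level.

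In KO males, Rian levels on chow were 4.11, 1.92, 3.05, 3.40 and 3.53 CPM. On HFD they were 1.25, 1.31, 0.595, 1.22 and 0.140 CPM, the last from only 3 reads. Replicate 5 was far below the rest of its HFD group, and the groups did not overlap. The log2 difference was -1.82 ± 0.44 (95% interval -2.70 to -0.93, edgeR adjusted p = 0.00978), a 3.52-fold lower level.

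In WT females, Rian levels on chow were 1.63, 1.64, 2.71, 1.91 and 4.24 CPM. On HFD they were 0.574, 0.379, 0.951, 0.580 and 0.576 CPM, from 9 to 21 reads. The groups did not overlap, and chow replicate 5 stood well above the other chow libraries. The log2 difference was -1.98 ± 0.46 (95% interval -2.91 to -1.05, edgeR adjusted p = 0.0111), a 3.94-fold lower level. Without chow replicate 5 the log2 difference was -1.67 and the edgeR adjusted p was 0.0585, so this call rested on that library.

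As the mean over both sexes of the KO, the log2 difference from chow to HFD was -2.10 ± 0.27 for Meg3 (95% interval -2.65 to -1.56, edgeR adjusted p = 6.00e-07). For Rian it was -2.24 ± 0.31 (95% interval -2.87 to -1.60, edgeR adjusted p = 3.43e-06). In that comparison 1866 genes (11.9%) passed, 5.94% as lower and 6% as higher. Ordered from the most negative log2 difference among 15627 genes, Rian was number 15 and Meg3 number 21, while the median gene stood at -0.01.

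The comparison that chose the members, HFD against chow in WT males, is given as values only. Meg3 levels on chow were 10.7, 6.65, 4.45, 4.2 and 4.97 CPM, and on HFD they were 1.54, 1.62, 0.749, 1.56 and 0.564 CPM. Rian levels on chow were 7.31, 2.99, 3.39, 3.93 and 2.86 CPM, and on HFD they were 0.154, 0.632, 0.234, 0.202 and 0.362 CPM, from 3, 14, 5, 4 and 9 reads. Neither gene's groups overlapped, chow replicate 1 was the highest library for both, and WT male HFD held the lowest group mean of Rian. The log2 differences were -3.64 ± 0.50 for Rian and -2.36 ± 0.38 for Meg3, in a comparison where 11.6% of genes passed and 5.87% passed as lower.

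**Figure D1:**
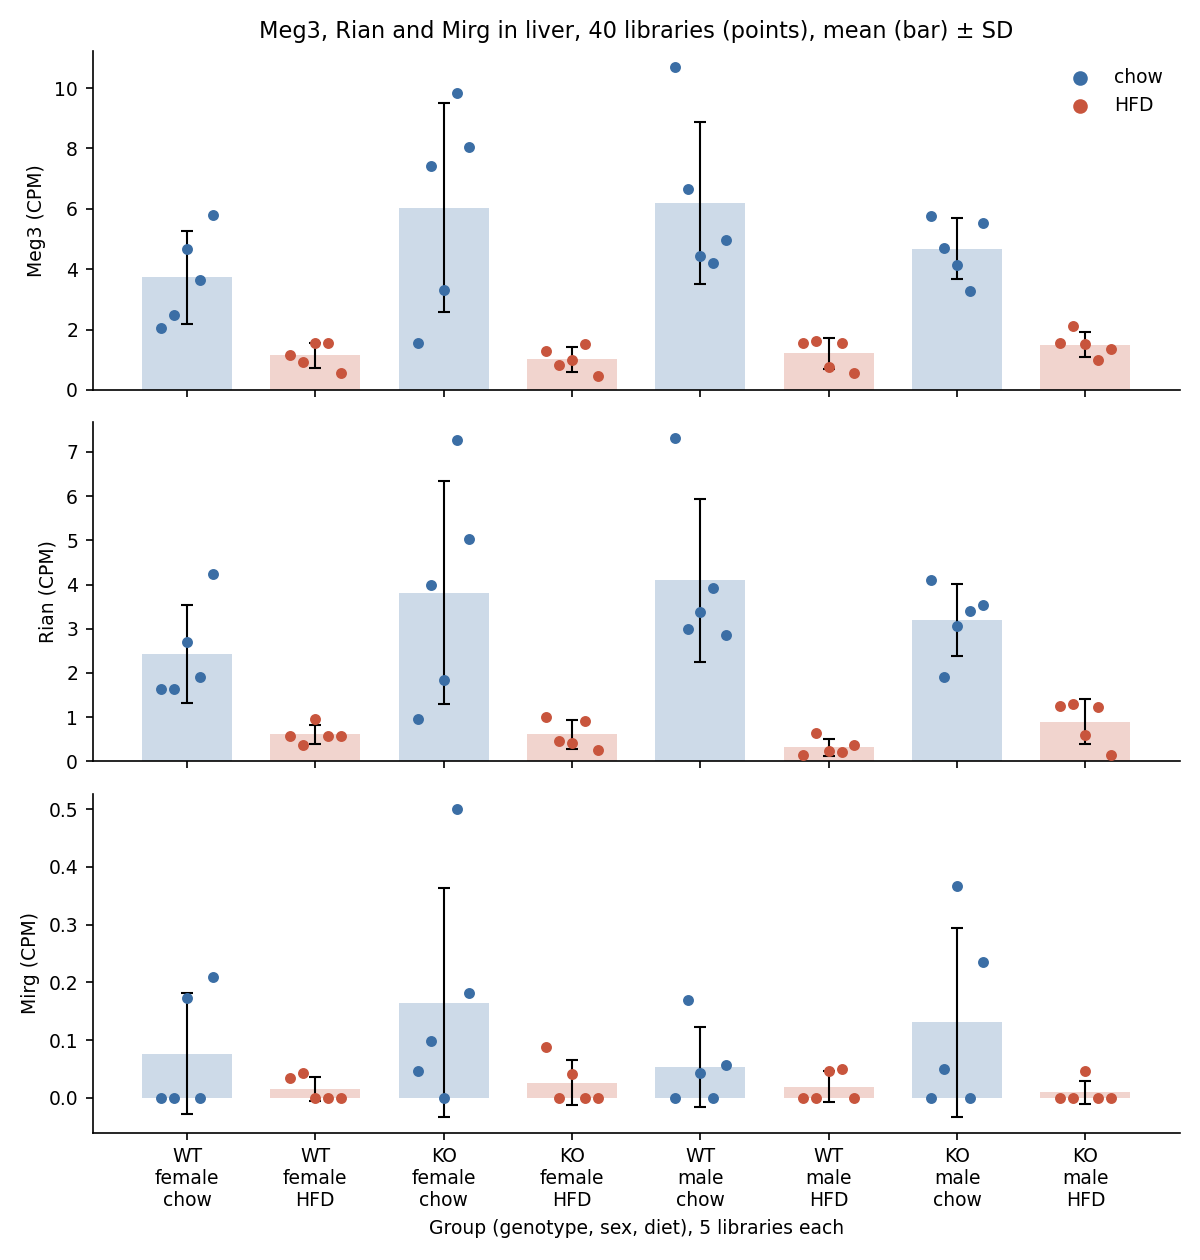
CPM (linear axes) of Meg3, Rian and Mirg in each of 40 libraries (points) by group, with bars for the mean and whiskers for the SD of 5 libraries. For Meg3 every HFD library lies below every chow library of its genotype and sex, and the KO female chow group spans 1.56 to 9.82 CPM.

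Mirg, the microRNA host farthest downstream of the members, was near the limit of detection. It gave 50 reads in all, spread over 19 of 40 libraries, so none of its group means rests on more than 19 reads. On chow it was read in 12 of 20 libraries with 42 reads, and on HFD in 7 of 20 libraries with 8 reads. By group and replicate, the reads were 0, 0, 3, 0 and 4 in WT female chow, 1, 2, 0, 11 and 5 in KO female chow, 0, 3, 1, 0 and 1 in WT male chow, and 0, 1, 6, 0 and 4 in KO male chow. No HFD library had more than 2 reads, and a library at 0 allows up to 3.

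Mirg was tested on CPM with a two-sided exact permutation test over libraries. In KO females the mean was 0.165 CPM on chow and 0.0258 CPM on HFD (exact p = 0.0952). In KO males it was 0.130 and 0.00915 CPM (exact p = 0.167), and in WT females 0.0764 and 0.0152 CPM (exact p = 0.444), where 5 against 5 libraries can reach 0.00794 at the lowest. None of these separated the diets beyond the spread between libraries. The KO mean over sexes fell by 0.13 CPM with an exact p of 0.0152, which is 0.122 after adjustment over the 8 Mirg comparisons tested, so Mirg did not pass. For WT males, the mean was 0.0537 CPM on chow and 0.0195 CPM on HFD, as a description.

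No difference of Meg3 or Rian by sex or genotype passed the test. These contrasts use the same libraries as the diet contrasts. The diet response of the KO, male minus female, differed by 0.95 ± 0.54 for Meg3 (95% interval -0.14 to 2.03, edgeR adjusted p = 0.855) and by 0.84 ± 0.63 for Rian (95% interval -0.44 to 2.12, edgeR adjusted p = 0.917). Neither passed, and 3 genes (0.0192%) passed that test in all. Both intervals include 0 as well as a weaker response in males.

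In females on chow, Meg3 averaged 6.03 ± 3.46 CPM in KO and 3.73 ± 1.55 CPM in WT (SD, n = 5). The log2 difference of KO minus WT was 0.70 ± 0.35 (95% interval 0.0044 to 1.40, edgeR adjusted p = 0.974). Rian averaged 3.82 ± 2.53 CPM in KO and 2.42 ± 1.11 CPM in WT, a log2 difference of 0.66 ± 0.40 (95% interval -0.14 to 1.47, edgeR adjusted p = 0.974). The KO libraries held both lower and higher values than the WT libraries, and neither gene passed. edgeR called 0 genes here (0%), with 698 at an unadjusted p under 0.05, and DESeq2 also called 0.

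In females on HFD, Meg3 averaged 1.02 ± 0.406 CPM in KO and 1.15 ± 0.415 CPM in WT, a log2 difference of -0.19 ± 0.42 (95% interval -1.04 to 0.67, edgeR adjusted p = 0.978). Rian averaged 0.608 ± 0.331 and 0.612 ± 0.208 CPM, a log2 difference of -0.01 ± 0.51 (95% interval -1.05 to 1.03, edgeR adjusted p = 0.998). The genotypes overlapped almost fully, in a comparison with 1 called gene (0.0064%). In males the KO minus WT log2 differences, untested because WT males chose the members, were -0.40 for Meg3 and -0.36 for Rian on chow, and 0.33 and 1.47 on HFD.

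Between the sexes of the KO, the male minus female log2 difference on chow was -0.37 ± 0.34 for Meg3 (edgeR adjusted p = 0.474) and -0.27 ± 0.39 for Rian (edgeR adjusted p = 0.676). On HFD it was 0.57 ± 0.41 for Meg3 (edgeR adjusted p = 0.362) and 0.57 ± 0.49 for Rian (edgeR adjusted p = 0.463). Neither gene passed on either diet, where 23.3% of genes passed on chow and 19.5% on HFD. In WT, the male minus female values were 0.73 for Meg3 and 0.75 for Rian on chow and 0.06 and -0.91 on HFD, untested. For Mirg, the genotype contrasts in females and the sex contrasts in KO gave exact p-values from 0.468 to 0.817.

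**Figure D2:**
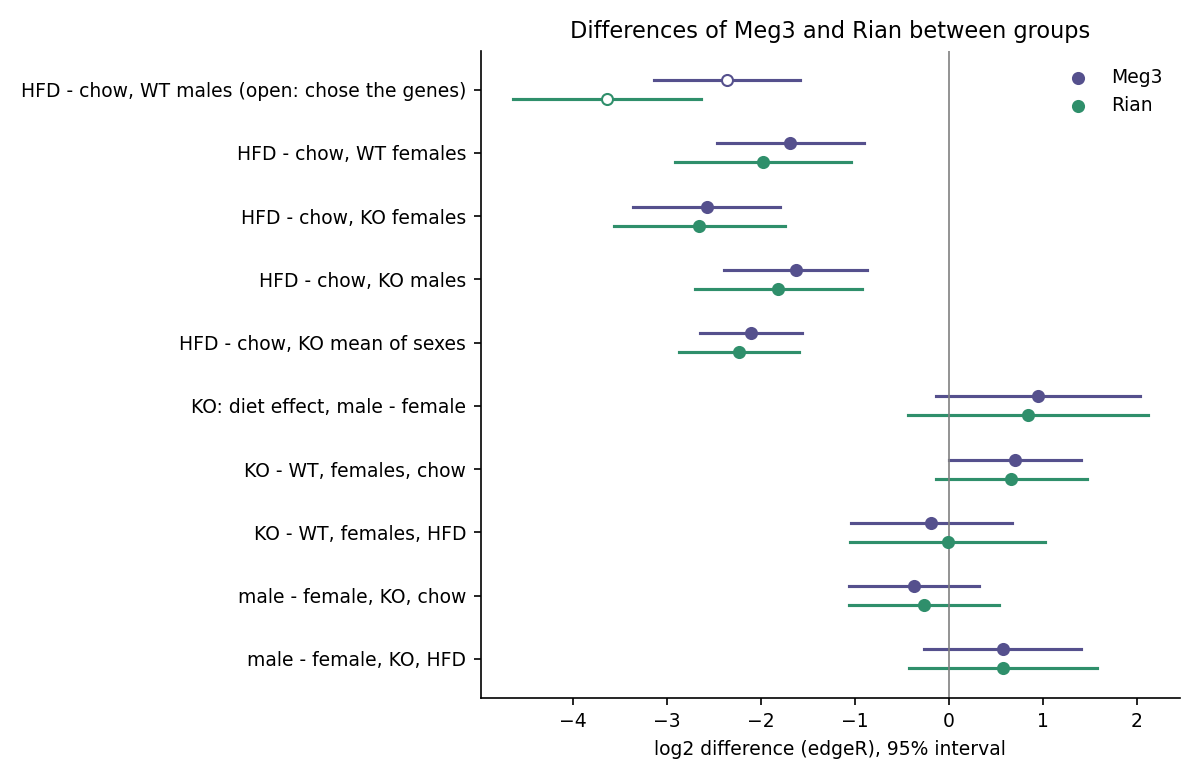
Log2 differences of Meg3 and Rian (points) with 95% intervals (lines) from edgeR, 1 row per comparison on a linear axis of log2 units, with 0 as no difference. The intervals of the diet comparisons lie wholly below 0, open points mark the comparison that chose the genes, and the interaction, genotype and sex intervals reach or nearly reach 0.

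Outside WT males, the 3 HFD group means lay below the 3 chow group means for both genes. From low to high, Meg3 group means ran from 1.02 CPM in KO female HFD, 1.15 in WT female HFD and 1.5 ± 0.406 in KO male HFD to 3.73 in WT female chow, 4.69 ± 1.02 in KO male chow and 6.03 in KO female chow (± SD, n = 5). The Rian order was the same, with KO male HFD at 0.902 ± 0.515 CPM and KO male chow at 3.20 ± 0.812 CPM. Neighbours within each diet differed by less than the larger of their SDs, and the step from the highest HFD to the lowest chow group was wider than any step within a diet. WT males, which chose the members, averaged 1.21 ± 0.510 CPM of Meg3 and 0.317 ± 0.192 CPM of Rian on HFD, and 6.19 ± 2.69 and 4.09 ± 1.84 CPM on chow.

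Per length, Meg3 was the most abundant of the members in every group. On the GENCODE M21 models, whose exons cover 18089 bases in Meg3, 18234 in Rian and 7292 in Mirg, the mean levels in KO female chow were 0.334, 0.209 and 0.0226 CPM per exonic kilobase. In KO female HFD they were 0.0561, 0.0334 and 0.00354 CPM per exonic kilobase. The order Meg3, Rian, Mirg therefore held on both diets. The models share 0 exonic bases with each other, and Meg3 shares 1228 with the antisense model Gm26906. That model is not among the gene IDs counted. Whether antisense reads were counted to Meg3 cannot be told without a stated strand setting.

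Rian and Meg3 varied together between libraries of the same group on chow. With each group's mean subtracted from log2 CPM, and WT males left out, Pearson's r over 15 chow libraries was 0.911 (permutation p = 0.0004) and Spearman's rho 0.914 (permutation p = 0.00024), both 0.0008 after adjustment over the 4 relations tested. Without the 2 libraries farthest from the Meg3 median, r was 0.809. Over 15 HFD libraries, r was 0.453 (permutation p = 0.0774, adjusted 0.0774) and rho was 0.589 (permutation p = 0.0303, adjusted 0.0404), and r without 2 libraries was 0.415. The HFD points rest on far fewer reads, and both genes of a point come from 1 library and its depth.

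**Figure D3:**
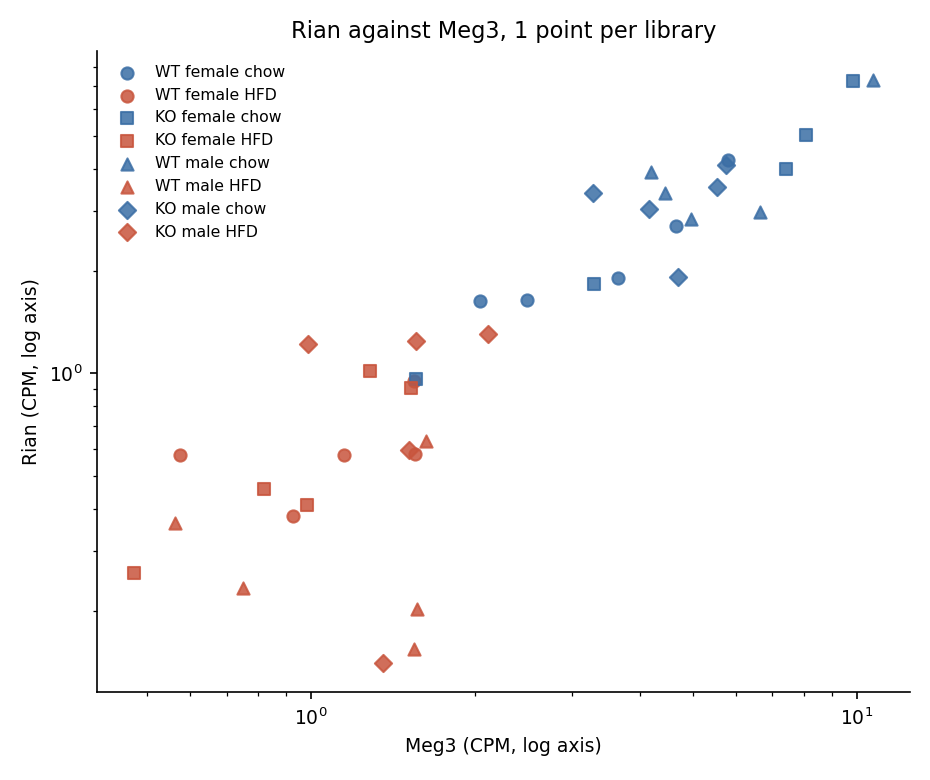
Rian against Meg3 in CPM on log axes, 1 point per library, colour for diet and shape for genotype and sex. The chow libraries form a rising band at the upper right and the HFD libraries a looser cloud at the lower left, where Rian rests on as few as 3 reads.

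Libraries of the same group differed from each other several-fold in places. In KO female chow the highest library was 6.32 times the lowest for Meg3 and 7.58 times for Rian, in WT female chow 2.85 and 2.60 times, in WT male chow 2.55 and 2.56 times, and in KO male chow 1.76 and 2.14 times. On HFD the widest range was that of Rian in KO males, at 9.33 times, where the lowest library had 3 reads. Whether the spread differs between groups was not tested. In KO female chow replicate 1 was the lowest and replicate 4 the highest for both genes, and replicate 4 also held 11 of the group's 19 Mirg reads.

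The balance between Rian and Meg3 was examined as the share of Rian among the reads of both. On chow it averaged 39.5% ± 4.07 in WT females, 38% ± 2.97 in KO females and 40.6% ± 7.85 in KO males (SD, n = 5). On HFD it averaged 35.6% ± 9.11, 36.4% ± 5.31 and 35.1% ± 17.4 in the same order. The 7 comparisons tested by diet, genotype and sex gave two-sided exact permutation p-values from 0.413 to 0.921, adjusted 0.822 to 0.921, so no shift of the balance was detectable. In WT males the share was 39.9% ± 6.58 on chow and 22.3% ± 12.4 on HFD, as a description. Single HFD libraries were imprecise, as in KO male HFD replicate 5, where 3 of 32 reads were Rian (9.38%, 95% Wilson interval 3.24 to 24.2%, counting error only).

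**Figure D4:**
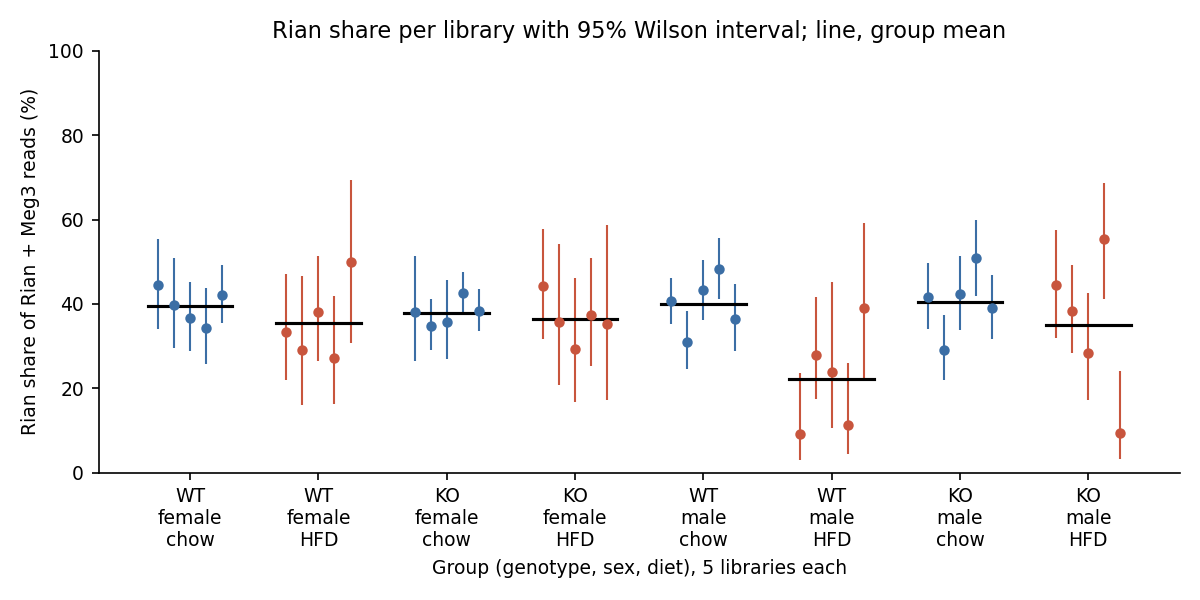
Rian reads as a percentage of Rian plus Meg3 reads (linear axis) in each library (points) with 95% Wilson intervals (whiskers), and the group mean as a black line. Chow means lie between 38 and 40.6%, HFD means between 35.1 and 36.4% apart from WT males at 22.3%, and HFD intervals are wide.

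Few other models of the domain were read in these livers, the main exception being Gm34667, described next. Of 122 gene models from Begain to Dio3 in GENCODE M21, 101 were counted in the files, 16 had any read and 4 passed the filter. Over all 40 libraries, the coding genes gave 9 reads for Dlk1, a membrane-bound Notch family ligand, 3 for Rtl1, a retrotransposon-derived gene, 38 for Dio3, the deiodinase that inactivates thyroid hormone, and 8 for Begain, at the edge of the domain. Wdr25, a coding gene listed with the domain but not among these models, averaged 3.61 CPM, and edgeR called it in no diet comparison tested. Of the small RNA models in the files, 1 of 59 microRNAs (Mir493, with 1 read) and 1 of 18 snoRNAs had any read, in libraries made by poly(A) selection. In the annotation 11 microRNA and 8 snoRNA models share exonic bases with a member, and why they had few reads was not tested.

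Next to the members, 2 other noncoding genes of the domain could be tested. Gm34667, between Mirg and Dio3, was the most read model of the domain at a mean of 16.4 CPM, and its log2 difference by diet in the KO mean was -0.15 ± 0.20 (95% interval -0.55 to 0.24, edgeR adjusted p = 0.701). By group it ranged from 12.9 to 20.6 CPM with no order by diet. Dio3os, the antisense partner of Dio3, averaged 0.646 CPM, and its diet difference in the KO mean was -1.03 ± 0.47 (95% interval -1.98 to -0.09, edgeR adjusted p = 0.157). Its direction was the same in WT females (-0.53) and it was called in none of the diet comparisons.

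Dio3os was called by sex. It was lower in KO males than in KO females by a log2 difference of -2.37 ± 0.57 on chow (edgeR adjusted p = 0.00214) and -2.78 ± 0.67 on HFD (edgeR adjusted p = 0.00235). Of all genes, 11.5% were called lower in KO males on chow and 10.3% on HFD. Its means were 1.09 and 0.617 CPM in KO females and 0.199 and 0.0864 CPM in KO males, on chow and HFD. Whether its sex difference is unlike that of Meg3 or Rian was not tested.

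**Figure D5:**
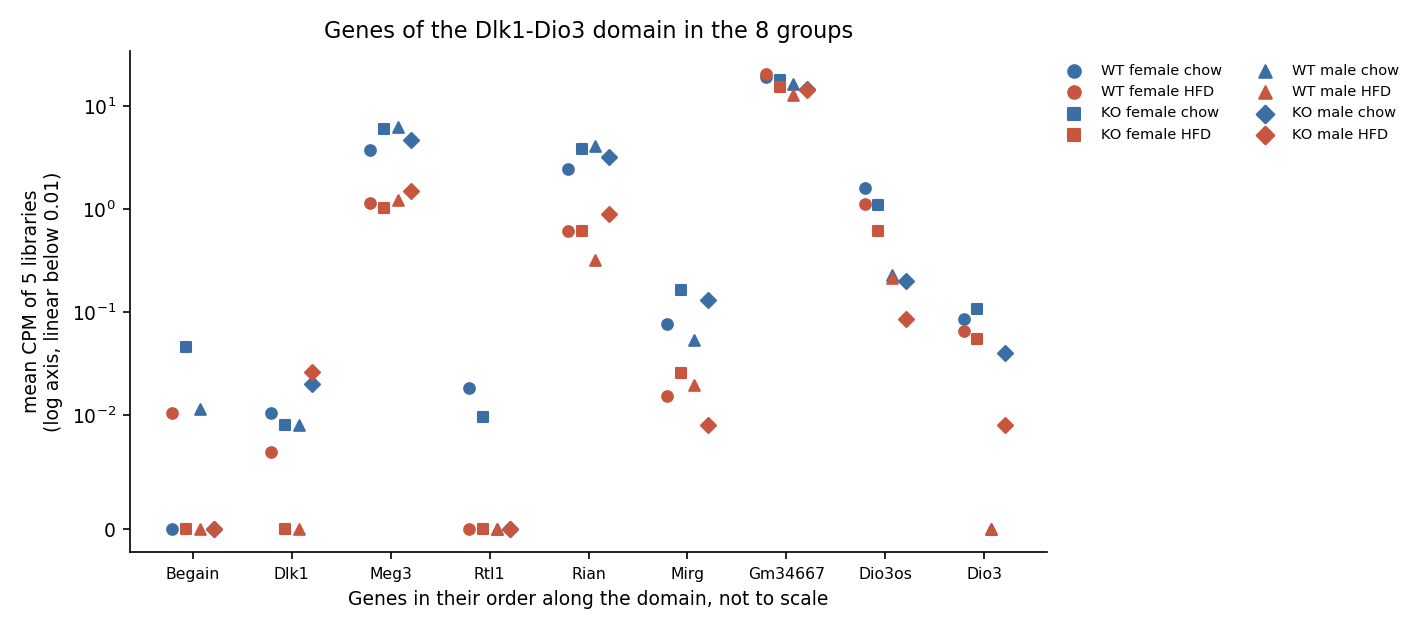
Mean CPM of 5 libraries per group (log axis, linear below 0.01) for genes of the Dlk1-Dio3 domain in their order, not to scale, colour for diet and shape for genotype and sex, with symbols overlapping where several groups are at 0. Meg3 and Rian means are lower on HFD in each genotype and sex, Gm34667 stays between 12.9 and 20.6 CPM, Dio3os means are lower in males, and the coding genes shown lie near 0.

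Genes outside the domain that are listed as imprinted in some tissue were counted by the copy they are listed under. No allele was measured here, and whether these genes are imprinted in adult liver was not tested. Of 21 tested genes listed as maternally expressed, 1 rose and 1 fell in the KO mean, where 6% and 5.94% of all genes did. The list's median log2 difference was -0.09 against -0.01 for all genes. The riser was Cd81, a tetraspanin (0.21 ± 0.05, edgeR adjusted p = 0.00615), and the faller was Cobl, an actin nucleator (-0.42 ± 0.13, edgeR adjusted p = 0.0339). Of 20 genes listed as paternally expressed, 3 rose and 1 fell, against the same shares of all genes, with a median of 0.00. They were Slc38a4, an amino acid transporter (0.32 ± 0.08, edgeR adjusted p = 0.0084), Impact (0.23 ± 0.07, edgeR adjusted p = 0.016), Sfmbt2, a Polycomb group gene, and Ddc, dopa decarboxylase (-0.51 ± 0.14, edgeR adjusted p = 0.0108). Sfmbt2 also rose in KO females, by a log2 difference of 1.47 ± 0.42 (edgeR adjusted p = 0.0298). In WT females edgeR called 0 of 21 and 0 of 20, where 2.8% of all genes were called, and in KO males 0 of each, where 4.45% were. At an unadjusted p under 0.05 were 5 of each list in WT females and 3 of each in KO males. Of all 15627 genes, 2361 in WT females and 2772 in KO males were under it.

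Of 22 tested factors that set, read or keep imprints, none rose and 2 fell in the KO mean, where 6% of all genes rose and 5.94% fell, with a median of -0.00. Those that fell were Dnmt3b, a de novo DNA methyltransferase (-0.73 ± 0.17, edgeR adjusted p = 0.00307), and Tet2, which oxidises methylcytosine (-0.28 ± 0.08, edgeR adjusted p = 0.0181). Tet2 was also lower in WT females (-0.40 ± 0.12, edgeR adjusted p = 0.0496) and KO females (-0.44 ± 0.12, edgeR adjusted p = 0.0174), and Dnmt3b in KO males (-0.92 ± 0.25, edgeR adjusted p = 0.0217). Zfp57, a zinc finger protein that holds imprints in the embryo, averaged 0.812 CPM and was not called by diet.

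Of 10 nuclear-retained noncoding RNAs tested, 2 fell in the KO mean and none rose, where 5.94% of all genes fell and 6% rose, with a median of -0.09. They were Malat1, a nuclear speckle RNA (-0.57 ± 0.16, edgeR adjusted p = 0.017), and Pvt1, the noncoding neighbour of Myc (-0.61 ± 0.20, edgeR adjusted p = 0.0388). Of 18 hosts of small RNAs elsewhere, 2 fell and none rose, against the same shares of all genes, with a median of 0.03. They were Dleu2, host of miR-15a and miR-16 (-0.31 ± 0.08, edgeR adjusted p = 0.00942), and Mir22hg, host of miR-22 (-0.24 ± 0.07, edgeR adjusted p = 0.0198).

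A list for FOXO1 signalling and gluconeogenesis held 16 tested genes, among them the broader stress and cell cycle genes Gdf15, Cdkn1a and Mdm2. In the KO mean 5 rose and none fell, where 6% of all genes rose and 5.94% fell. The list's median was 0.22 against -0.01 for all genes. The 3 of smallest p were Pcx, pyruvate carboxylase (0.39 ± 0.08, edgeR adjusted p = 0.000811), Gdf15, a stress-induced cytokine (0.98 ± 0.26, edgeR adjusted p = 0.00944), and Cdkn1a, a cell cycle inhibitor (1.14 ± 0.33, edgeR adjusted p = 0.0166). The others were Creb3l3 and Foxo1. No other gene of the list was called in a tested diet comparison, Igfbp1, Irs2, Pdk4 and Ppargc1a among them. In single comparisons 1 rose in KO females (Creb3l3, where 2.4% of all genes rose) and 1 in KO males (Pcx, where 2.32% rose). In WT females 0 rose (0.96%), and 3 were at an unadjusted p under 0.05, as were 2361 of all 15627 genes.

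Markers of the cell types of liver were followed beside Meg3 and Rian. Of all genes, 0.96% rose and 1.84% fell in WT females, and 2.4% rose and 2.54% fell in KO females. In KO males 2.32% rose and 2.12% fell, and in the KO mean 6% rose and 5.94% fell. These shares apply to all marker calls by diet that follow. Of 7 endothelial markers none fell in a tested diet comparison, and Lyve1 rose in WT females (1.12 ± 0.22, edgeR adjusted p = 0.00194) and KO males (0.84 ± 0.22, edgeR adjusted p = 0.0208), and in the KO mean (0.73 ± 0.15, edgeR adjusted p = 0.00106). Their summed level in KO females ran from 205 to 243 CPM on chow and from 186 to 248 CPM on HFD, and in KO males from 122 to 172 and from 127 to 180 CPM. Of 7 stellate cell markers none fell, and Colec11 rose in WT females (0.38 ± 0.08, edgeR adjusted p = 0.0066) and KO males (0.33 ± 0.09, edgeR adjusted p = 0.0178), and in the KO mean (0.20 ± 0.06, edgeR adjusted p = 0.0226). Stellate sums in KO females were 306 to 336 CPM on chow and 290 to 334 CPM on HFD, and in KO males 189 to 239 and 225 to 285 CPM.

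Of 6 macrophage markers, Csf1r fell in the KO mean (-0.35 ± 0.12, edgeR adjusted p = 0.0469) and Adgre1 rose in WT females (0.67 ± 0.18, edgeR adjusted p = 0.0281). Macrophage sums in KO females were 255 to 288 CPM on chow and 239 to 264 CPM on HFD, and in KO males 134 to 191 and 84.6 to 180 CPM. Of 5 hepatocyte markers, Serpina1c, a serine protease inhibitor of plasma, fell in KO females (-0.56 ± 0.13, edgeR adjusted p = 0.00456) and in the KO mean (-0.43 ± 0.09, edgeR adjusted p = 0.000815). Hepatocyte sums in KO females were 94100 to 104000 CPM on chow and 72400 to 93100 CPM on HFD, and in KO males 73200 to 87600 and 61400 to 86300 CPM. No endothelial, stellate, macrophage or hepatocyte marker was at 0 in every library of a group.

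Calls by diet were also made among adipose, pancreas and red cell markers. Of 4 adipose markers only Cidec, a lipid droplet protein, passed the filter, and it rose in KO females (1.53 ± 0.46, edgeR adjusted p = 0.0429) and KO males (2.69 ± 0.42, edgeR adjusted p = 6.17e-05). The summed adipose level was 1.23 to 2.06 CPM on chow and 1.19 to 4.90 CPM on HFD in KO females, and 2.20 to 2.85 and 3.92 to 32.1 CPM in KO males, while Adipoq, which defines fat cells, averaged 0.135 CPM. Among 3 pancreas markers Cela1, an elastase, fell in the KO mean (-0.60 ± 0.19, edgeR adjusted p = 0.0297), with Cpa1 and Prss2 at 0 in 33 and 30 of 40 libraries. The summed pancreas level was 11.7 to 24.5 CPM on chow and 7.9 to 50.6 CPM on HFD in KO females, and 32.6 to 45.4 and 20 to 33.4 CPM in KO males. Of 3 red cell markers, Alas2 rose in WT females (0.60 ± 0.16, edgeR adjusted p = 0.039). The part of the marker movements in the Meg3 and Rian differences was not tested.

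Between sexes, all 7 endothelial, 6 of 7 stellate and all 6 macrophage markers were lower in KO males than in KO females on chow, where 11.5% of all genes were lower. On HFD 5, 2 and 6 of them were lower, where 10.3% of all genes were. Other marker calls went both ways. On both diets the hepatocyte markers Apoa1 and Serpina1c, Sox9 (cholangiocyte), Cela1 and Alas2 were higher in KO males. Alb, Ms4a1 (B cell) and the proliferation markers Mki67 and Top2a were lower on both, and Cidec was higher on HFD only. In either direction 23.3% of all genes were called on chow and 19.5% on HFD. Meg3 and Rian were not called in these comparisons, and the part of these markers in them was not tested.

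The genes whose pattern was most like that of the members were found by Pearson's r of log2 CPM over 40 libraries among the 12553 genes that averaged 1 CPM or more, as a description. With group means subtracted, the 5 most like Meg3 were Slco1a1, an organic anion transporter (r = 0.702), Tesk2, a kinase (0.678), Slc22a30 (0.661), Ugt2b38, a glucuronosyltransferase (0.654), and Hsd3b5, a steroid-metabolising enzyme (0.653). Those most like Rian included Meg3 (0.625), Gm49125 (0.614), C1ra, a complement protease (0.614), and Garem1 (0.606). Likeness between libraries of a group did not always come with a like diet difference. On the log2 scale, Meg3 differed by -1.69 in WT females, -2.58 in KO females and -1.63 in KO males. In that order, Slco1a1 differed by -1.31, -2.65 and -0.08, and Tesk2 by -0.04, -0.005 and -0.08. Slc22a30 differed by -0.365, -0.301 and -0.273, Ugt2b38 by -1.04, -1.29 and -2.43, and Hsd3b5 by -0.65, -4.0 and -0.54.

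With group means kept, so that diet and sex count toward the likeness, Rian was the gene most like Meg3 (r = 0.893). It was followed by Hsd17b2, a steroid dehydrogenase (0.884), the cytochromes Cyp2c54 (0.88) and Cyp1a2 (0.855), and Ces2a, a carboxylesterase (0.835). For Rian the next were Cyp1a2 (0.867), Gm35164 (0.85), Nat8f1 (0.836) and Hsd17b2 (0.829). These r values include the step between chow and HFD libraries. Cyp2c54 differed by -1.98 in WT females, -2.43 in KO females and -1.57 in KO males on the log2 scale, and Meg3 by -1.69, -2.58 and -1.63.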

How the data were processed

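Whole-number read counts per gene were deposited by the authors, 1 table per library. STAR 2.7.10b, featureCounts 2.0.6 and mm39 are named in the submitters' processing notes (annotation release and strand option not given in the sources used here). Exon models came from GENCODE M21 on GRCm38, and symbols matched 51880 IDs (90.7%).

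The main test was that of edgeR 4.0.16 in R 4.3.3 (filterByExpr by group with a minimum count of 10, TMM scaling, 1 fit of 8 group means over 40 libraries, quasi-likelihood F-test, Benjamini-Hochberg adjustment within each contrast, threshold 0.05), tested on simulated data. SEs were taken as log2 difference over root F. Mirg missed the filter, so its planned edgeR test was replaced by an exact permutation test of CPM. Genes other than the members were named by rule, as up to 3 called members of smallest adjusted p per list, the domain's coding genes and models at 1 CPM or more, and the 5 genes most alike, of which 1 is not reported here. Dio3os, Wdr25, Sfmbt2, Creb3l3, Foxo1, Mdm2, Igfbp1, Irs2, Pdk4, Ppargc1a, Zfp57, Mir493 and Mir1906-1 fall partly or wholly outside it and were picked with their values in view. The members and lists were chosen with earlier results of these data known.

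None of 80 replicate pairs held identical counts. Alternatives were a replicate block, omission of each library, other filters, RLE scaling, fits of only the compared groups, and DESeq2 1.42.0. Figures used matplotlib 3.10.9 in Python 3.11.15. Wilson intervals and the limit for a count of 0 cover counting error only.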

Additional observations from a re-analysis of the deposited data

Results flagged for a closer look

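A library stood apart from the other 4 of its group, by a gap above Dixon's 95% critical value of 0.71, in 2 of 32 groups, where chance gives about 1 in 20. In WT male chow, replicate 1 was the highest for Rian at 7.31 CPM, with the next library at 3.93 CPM, and these libraries belong to the comparison that chose the members, so the values are a description. In KO male HFD, replicate 3 was the only library with a Mirg read, at 0.0457 CPM from 1 read, and with the other 4 at 0 the gap fills the range by construction.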

How the results depend on the processing

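Of 434 alternative values for Meg3, Rian and Mirg in the tested comparisons, WT males by diet left out, 422 kept their direction and their side of the threshold. Across the settings other than leaving out a library, Meg3 by diet ranged from -1.70 to -1.66 in WT females, -2.58 to -2.56 in KO females and -1.64 to -1.62 in KO males. Without 1 library at a time, Rian in WT females ranged from -2.18 to -1.67, Rian KO minus WT in females on HFD from -0.29 to 0.20, and Rian male minus female in KO on chow from -0.52 to 0.10. Under the same omissions, Mirg (CPM differences) ranged from -0.00495 to 0.0174 for KO minus WT in females on HFD, from -0.0935 to 0.0493 for male minus female in KO on chow, and from -0.151 to -0.0884 for diet in the KO mean. The last passed the adjusted threshold without KO female chow replicate 3 (adjusted p = 0.0219) or KO male chow replicate 1 or 4 (adjusted p = 0.0491), and also in edgeR with no low-count filter (log2 difference -2.78, adjusted p = 0.0461). Among the diet calls of Meg3 and Rian, 1 was lost, that of Rian in WT females without chow replicate 5 (-1.67, adjusted p = 0.0585). The cause of these changes was not tested.

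Deviations of same-numbered libraries correlated above 0.1 in 1 of 20 pairs (r from -0.112 to 0.188), so the numbers were not taken to pair the libraries. With the replicate block, the diet differences in the KO mean were -2.10 for Meg3 and -2.23 for Rian, and no call of Meg3 or Rian changed. Of 40 libraries, 12 were closest to one of their own number. Mirg could not be fitted under the block, the 1 CPM filter, only the groups compared or DESeq2.

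Counts of called genes changed by more than 1.5 times in these cases. The diet by sex test in KO called 3 genes, 11 with no filter, 5 with only the groups compared and 24 in DESeq2. KO minus WT in females on HFD called 1, and 0 with no filter or with only the groups compared. Using only the groups compared, diet called 226 in place of 438 genes in WT females and 1079 in place of 1811 in WT males. Low reads limit Rian on HFD and Mirg everywhere.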
